A study of Mus musculus with 10 samples.

Results

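The renin-angiotensin-aldosterone system was followed at the transcript level in mouse hearts through 9 named components. These were angiotensinogen (Agt), angiotensin-converting enzyme (Ace), the angiotensin II receptors Agtr1a and Agtr2, the receptor-associated protein Agtrap, the prorenin receptor Atp6ap2, the angiotensin IV receptor Lnpep, the mineralocorticoid receptor Nr3c2 and the glucocorticoid-inactivating enzyme Hsd11b2. Members were taken by symbol, as every probe set (the group of array probes that reports on 1 transcript) whose platform annotation gave only that symbol. This found 12 probe sets for 8 of the 9 genes, among 18193 genes and 45037 probe sets. Lnpep is not analysed here.

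The hearts came from littermate male SV129 mice 32 weeks old. They were wild type (WT) or PKCz -/- (KO), that is, without the atypical protein kinase C isoform zeta. Angiotensin II (AngII) was infused under the skin from osmotic minipumps at 432 µg/kg/day for 14 days, and PBS was the control. The groups were WT PBS (2 arrays), WT AngII (3 arrays), KO PBS (3 arrays) and KO AngII (2 arrays), and an array is written as its group followed by the number in its title (WT AngII 2). The controls' source label calls them untreated, while the titles and design text name PBS. The labels do not describe the PKCz allele, the heart region or whether arrays came from separate animals. What the p-values measure is therefore the spread between these samples alone, and it may be technical.

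In this hormone system the protease renin cuts angiotensinogen, and angiotensin-converting enzyme turns the product into AngII, the effector peptide that was infused here. AngII acts mainly through its type 1 receptor, which constricts vessels and drives growth of heart muscle, and it stimulates the adrenal cortex to release aldosterone. Aldosterone and corticosterone both bind the mineralocorticoid receptor, and Hsd11b2 protects that receptor in salt-handling epithelia by inactivating corticosterone. The comparison asked which of these components can be read in the heart and how their transcripts stood in the 4 groups.

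All values are log2 expression values as deposited, so a difference of 1 is a doubling, and differences are given ± SE of a limma fit to all 10 arrays. Over all probe sets, r between any pair of arrays was 0.973 to 0.995. Bacterial spike-in RNAs added before labelling read 12.9 to 13.3 on 7 arrays but 6.90 to 7.08 on both KO AngII arrays and on KO PBS 4. Every WT array was on the high side of this split. A KO AngII value corrected for it therefore rests on KO PBS 4 as the link. The split also showed in the sample's own RNA, as log2 signal from the end of a transcript minus that from its start. For actin this was 0.74 to 0.83 where spike-ins were low, against 0.92 to 1.70 elsewhere. Gapdh gave 0.016 to 0.12, against 0.18 to 0.59. Correcting for the split cannot separate the spike-in level from this difference, and its part in the KO against WT values was not tested. WT AngII 2 stood apart in its tissue markers: its 9 fibroblast markers averaged 1.87 above their all-array mean, against −0.65 to 0.45 on the other 9 arrays. Its 7 macrophage markers averaged 1.02 above, against −0.41 to 0.20 elsewhere. The targeted gene Prkcz read 6.23 to 6.45 on WT and 5.70 to 5.87 on KO arrays with its brightest probe set (averaged difference −0.53 ± 0.09, limma adjusted p = 0.126). For the pair of dimmer Prkcz probe sets the averaged difference was 0.10 ± 0.09 and −0.09 ± 0.08, and the labels do not say which exons were removed. All 3 were below the background level defined next on all 10 arrays, so this check of the labels rests on a dim signal. All 8 cardiomyocyte markers were above background, with Myh6, the main myosin of mouse heart muscle, at 14.3 to 14.5. Of 4 atrial markers 2 were above it, while the defining ones, Myl7 (5.74 to 6.36) and Sln (4.87 to 6.11), were below it on all arrays.

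Of the 8 measured members, 5 were above background on all 10 arrays. Background was set at 6.87, the 95th percentile of 86 probe sets of smell, taste and pheromone receptors, taken as genes little used in heart. The 5 were Ace, Agtr1a, Agtrap, Atp6ap2 and Nr3c2, each judged by its brightest probe set. Agt was above on 9 of 10 arrays, with WT AngII 2 just below. Agtr2 and Hsd11b2 were below on all 10 arrays, so by this rule neither counts as detected, and their small differences are those of dim probe sets. The level comes from other probe sets and cannot show that a transcript is absent. The number of members above background was 4 against the 99th percentile of the same receptor probe sets, 7.50, where Agtrap dropped out, and 6 without WT AngII 2.

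**Figure D1:**
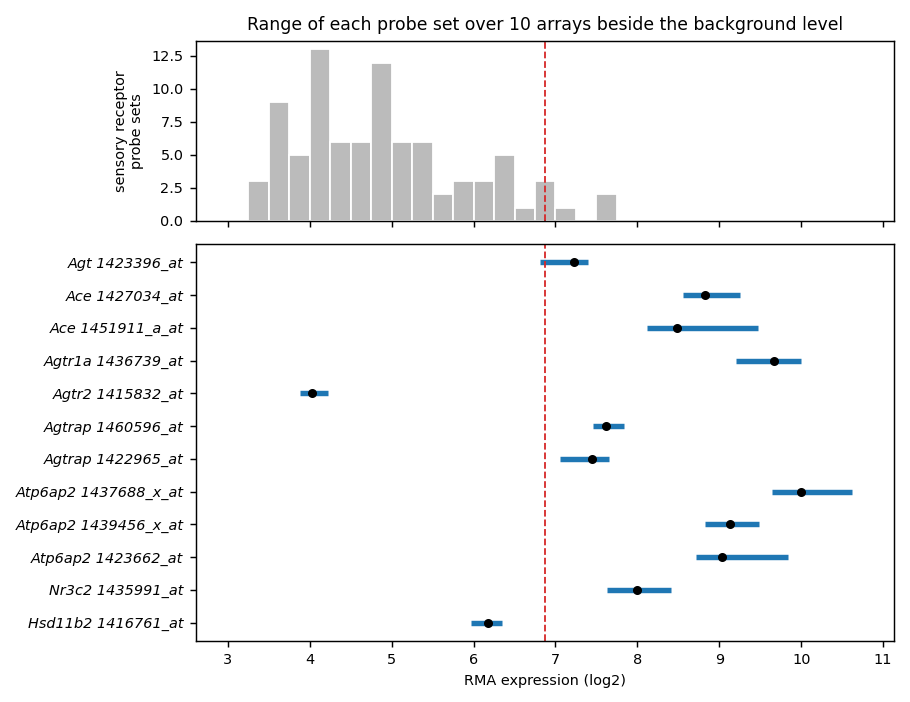
Top, the distribution of mean log2 values of the 86 sensory receptor probe sets, with the background level of 6.87 as a dashed line. Bottom, for each of the 12 member probe sets, the range over 10 arrays (bar) and the mean (point); Agtr2 and Hsd11b2 lie wholly left of the line and Agt just reaches across it.

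No member probe set was called in any of the 7 comparisons, where a call means a limma p under 0.05 after Benjamini-Hochberg adjustment over all 45037 probe sets. For AngII against PBS in WT, 0 of 12 were called, and 0% of all probe sets. In KO it was also 0 of 12 and 0%, and for the difference between both AngII effects (the interaction) 0 of 12 and 0%. KO against WT called 0 of 12 members under PBS, where 0.0133% of all probe sets were called. Under AngII KO against WT called 0 of 12, beside 0.0111% of all. Averaged over genotypes the AngII effect called 0 of 12 and 0%, and averaged over treatments the genotype difference called 0 of 12 beside 0.0444%.

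At an unadjusted p under 0.05, 2 of 12 member probe sets passed for AngII in WT, beside 5.23% of all probe sets. Another 1 of 12 passed for KO against WT under AngII, beside 6.51%, and 1 of 12 for the averaged AngII effect, beside 9.62%. None passed for AngII in KO (4.57% of all), the interaction (1.64%), KO against WT under PBS (6.29%) or the averaged genotype difference (12.4%). The members' median difference was 0.06 for AngII in WT and −0.15 for AngII in KO, where the medians of all probe sets were 0.01 and 0.02. The largest single difference among the members belonged to Ace in WT hearts.

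**Figure D2:**
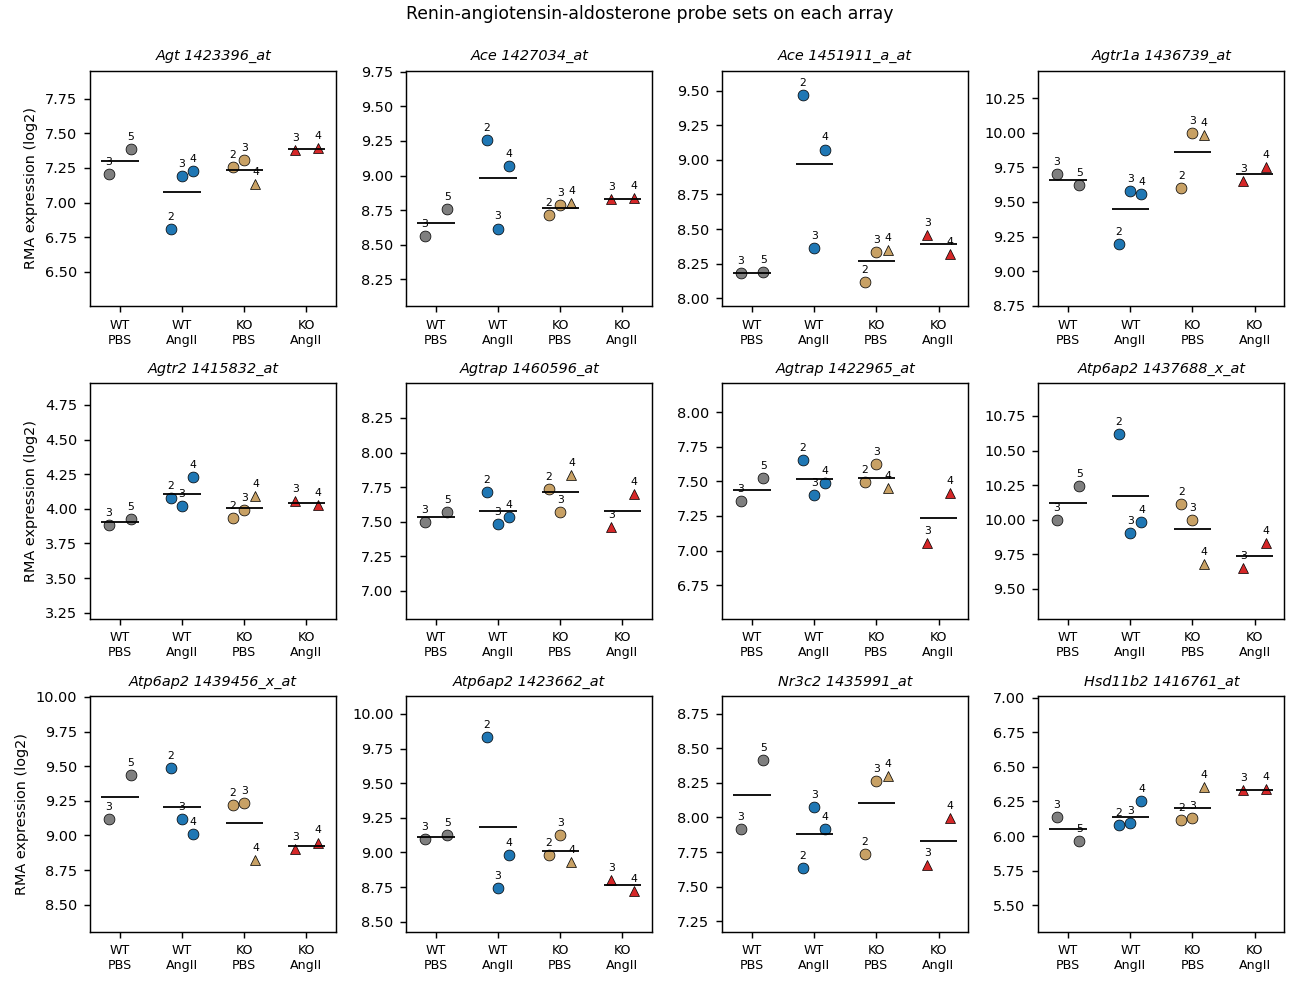
Deposited log2 value of each member probe set on each array, by group, with group means as lines, array numbers above the points, and triangles for the 3 arrays of low spike-in signal. Every panel spans the same width of log2 units, so the wide spread of Ace 1451911_a_at and the single high point of Atp6ap2 on WT AngII 2 can be compared directly.

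Agt encodes angiotensinogen, the only known precursor of the angiotensin peptides, which is made mainly by liver. Its probe set 1423396_at read 7.21 and 7.39 in WT PBS, 6.81, 7.19 and 7.23 in WT AngII, 7.26, 7.31 and 7.13 in KO PBS, and 7.38 and 7.39 in KO AngII. WT AngII 2 was the lowest array, and both KO AngII arrays were among the highest 3. The AngII difference was −0.22 ± 0.16 in WT (95% interval −0.57 to 0.13) and 0.15 ± 0.16 in KO (−0.20 to 0.51). Without WT AngII 2 the WT value was −0.09. The KO AngII arrays lay above all KO PBS and all WT AngII arrays. KO against WT under AngII was 0.31 ± 0.16 (limma adjusted p = 0.734), and 0.17 without WT AngII 2. With the spike-in level as a block it was 0.46 ± 0.27, and 0.33 with the block and without WT AngII 2. Of 4 liver markers 0 were above background, and Alb, the serum albumin gene, read 5.17 to 5.90.

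Ace encodes the membrane peptidase that forms AngII from angiotensin I and also degrades bradykinin. It is carried mainly by endothelium, and a shorter form arises in testis from a start inside the gene. The bases upstream of both annotated Ace starts are shown here because Ace had the widest range over the arrays among the members. They are given 5′ to 3′ from RefSeq (GRCm38.p6, + strand), with TATA boxes (TATAAA) and GC boxes (GGGCGG), searched on both strands, in capitals.
Ace, upstream start, chr11:105967698-105967947: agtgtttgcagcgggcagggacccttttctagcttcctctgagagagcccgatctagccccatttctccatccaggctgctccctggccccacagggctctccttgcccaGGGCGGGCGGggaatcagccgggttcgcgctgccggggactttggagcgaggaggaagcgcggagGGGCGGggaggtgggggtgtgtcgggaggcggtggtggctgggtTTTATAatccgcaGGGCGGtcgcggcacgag
Ace, downstream start, chr11:105974939-105975188: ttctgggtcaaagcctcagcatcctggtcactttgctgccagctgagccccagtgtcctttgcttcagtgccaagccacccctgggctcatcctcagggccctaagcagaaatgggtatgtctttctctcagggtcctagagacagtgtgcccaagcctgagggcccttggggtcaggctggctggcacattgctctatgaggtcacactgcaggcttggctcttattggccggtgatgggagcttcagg

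The upstream window held 1 TATA box, 31 bases before the start, and 4 GC boxes, of which a pair overlap. This TATA box matched on the strand opposite to the gene and is printed as TTTATA. The downstream window, 7241 bases further on, held neither motif. Among 32851 RefSeq windows of the same length, 12.4% held a TATA box and 32.7% a GC box. GC content was 67.2% upstream and 58.0% downstream, where the median window had 52.4%. A match is only a run of letters, and the array values do not say which start was used. Windows were at hand for 7 of the 9 member genes, and the Agt window also held a TATA box, 30 bases before its start. Agtr1a and Hsd11b2 had no entry.

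The brighter Ace probe set, 1427034_at, read 8.56 and 8.76 in WT PBS and 9.25, 8.62 and 9.07 in WT AngII. Its KO arrays were close together, at 8.71, 8.79 and 8.80 under PBS and 8.83 and 8.84 under AngII. The WT groups overlapped and the KO groups did not, although the KO gap was small. The AngII difference was 0.32 ± 0.18 in WT (95% interval −0.07 to 0.72) and 0.07 ± 0.18 in KO (−0.33 to 0.46). The WT value was 0.19 without WT AngII 2 and 0.50 without WT AngII 3.

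Probe set 1451911_a_at, whose probes match several transcripts of Ace, spread further. It read 8.18 and 8.19 in WT PBS and 9.47, 8.36 and 9.07 in WT AngII, so that all 3 treated arrays lay above both controls. In KO it read 8.12, 8.34 and 8.35 under PBS and 8.46 and 8.32 under AngII, where the groups overlapped. The WT difference was 0.78 ± 0.25, or 1.72-fold (95% interval 0.23 to 1.34, limma adjusted p = 0.930). It was 0.53 without WT AngII 2 and 1.09 without WT AngII 3. In KO the difference was 0.12 ± 0.25 (−0.43 to 0.68), and the test of both effects against each other gave −0.66 ± 0.36 (limma adjusted p near 1). Of the alternatives run, only a fit that weights arrays by their estimated quality called this probe set, with an adjusted p of 0.0463 for the WT effect.

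Under AngII the same probe set was lower in KO than in WT by a log2 difference of −0.58 ± 0.25 (limma adjusted p = 0.734), with overlapping groups. It was −0.33 without WT AngII 2 and −0.70 ± 0.44 with the spike-in level as a block. The array-weighted fit gave −0.64 with an adjusted p of 0.0250. That fit gave WT AngII 4 a weight of 7.20 and WT AngII 2 a weight of 0.225, and it also called 2911 of all probe sets for this comparison, where the unweighted fit called 5. Averaged over genotypes, AngII against PBS was 0.45 ± 0.18 (limma adjusted p = 0.497). The brighter Ace probe set gave a smaller KO against WT difference under AngII, −0.15 ± 0.18, with overlapping groups. This was −0.01 without WT AngII 2 and −0.20 ± 0.31 with the spike-in level as a block. Its averaged AngII effect was 0.19 ± 0.13, and its interaction was −0.25 ± 0.26. The 2 Ace probe sets followed each other over the 10 arrays (r = 0.92, and 0.82 without WT AngII 2). In whole tissue, more cells of a type and more RNA per cell cannot be told apart. The brighter Ace probe set ran with the fibroblast marker mean (r = 0.82, and 0.54 without WT AngII 2) more than with the endothelial mean (r = 0.21, and −0.03), as a description over arrays that share groups. The same probe set also ran with the macrophage mean (0.68 and 0.03) and the smooth muscle mean (0.61 and −0.11). It ran against the cardiomyocyte mean (−0.76 and −0.30). The liver list, at background, gave values of similar size, −0.62 and −0.30. These r values therefore do not point to a cell type, and the part of any cell type in the Ace values was not tested.

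**Figure D3:**
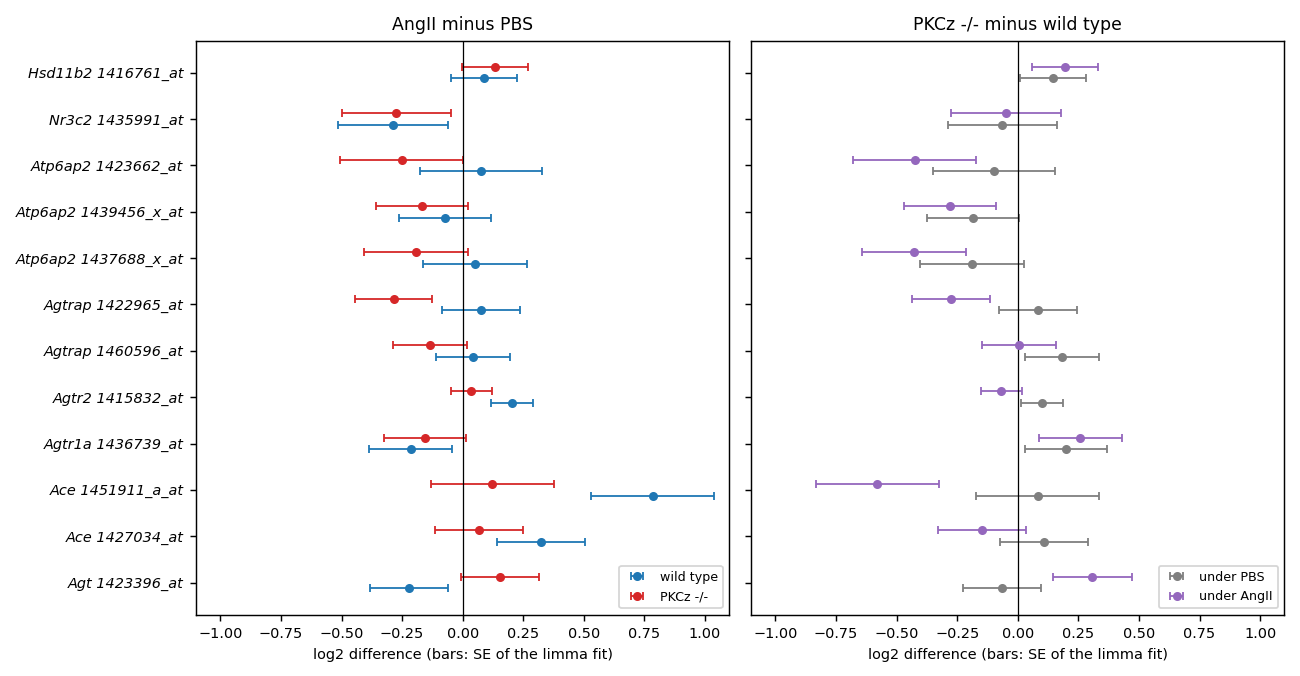
Log2 differences of the 12 member probe sets with SE of the limma fit as bars; left, AngII minus PBS in WT and in PKCz -/-; right, PKCz -/- minus WT under PBS and under AngII. Ace 1451911_a_at in WT, at 0.78, is the point farthest from 0, and no point passed the adjusted threshold.

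Agtr1a encodes the type 1a receptor, the main AngII receptor of rodent heart and vessels. Its probe set 1436739_at read 9.70 and 9.62 in WT PBS and 9.20, 9.58 and 9.56 in WT AngII. In KO it read 9.60, 9.999 and 9.99 under PBS and 9.65 and 9.75 under AngII. All WT AngII arrays were below both WT PBS arrays, by as little as the gap between 9.62 and 9.58. The AngII difference was −0.22 ± 0.17 in WT (95% interval −0.59 to 0.16) and −0.16 ± 0.17 in KO (−0.53 to 0.21). The interaction was 0.06 ± 0.24, and the averaged AngII effect −0.19 ± 0.12. Without WT AngII 2 the WT difference was −0.09.

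The receptor stood at a higher mean in KO, at 0.20 ± 0.17 under PBS and 0.26 ± 0.17 under AngII. Both KO AngII arrays were above all 3 WT AngII arrays. The averaged genotype difference was 0.23 ± 0.12 (95% interval −0.03 to 0.49, limma adjusted p = 0.441). With the spike-in level as a block it was 0.10, and under AngII alone 0.07.

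Agtr2 encodes the type 2 receptor, which opposes many actions of the type 1 receptor and is abundant before birth. Its probe set 1415832_at read 3.88 and 3.93 in WT PBS, 4.08, 4.02 and 4.23 in WT AngII, 3.93, 3.99 and 4.09 in KO PBS, and 4.05 and 4.03 in KO AngII. All were lower than the median of the sensory receptor probe sets, 4.80. The WT difference of 0.20 ± 0.09 came with groups that did not overlap, and the limma adjusted p was 0.930. RMA compresses values this dim, so the difference is that of a probe set at background. The paralogue Agtr1b, the second type 1 receptor gene of rodents, was also below background, at 5.13 to 5.52.

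Agtrap encodes a small membrane protein that binds the type 1 receptor and promotes its uptake into the cell. Probe set 1460596_at read 7.50 and 7.57 in WT PBS, 7.71, 7.48 and 7.54 in WT AngII, 7.74, 7.57 and 7.84 in KO PBS, and 7.46 and 7.70 in KO AngII. The 10 arrays spanned 0.37, and no array stood clear of the rest. The AngII difference was 0.04 ± 0.15 in WT and −0.13 ± 0.15 in KO. All KO PBS arrays were above both WT PBS arrays, the nearest pair being KO PBS 3 at 7.573 and WT PBS 5 at 7.570. The genotype difference under PBS was 0.18 ± 0.15 (95% interval −0.15 to 0.52).

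A second Agtrap probe set, 1422965_at, read 7.36 and 7.52 in WT PBS, 7.66, 7.40 and 7.49 in WT AngII, 7.49, 7.62 and 7.46 in KO PBS, and 7.06 and 7.42 in KO AngII. KO AngII 3 was the lowest array here. AngII against PBS in KO was −0.29 ± 0.16 (95% interval −0.63 to 0.06, limma adjusted p = 0.892), with the KO groups apart, and −0.10 without KO AngII 3. The 2 Agtrap probe sets followed each other only loosely (r = 0.46 over 10 arrays), so they do not give 1 reading of the gene.

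Atp6ap2 encodes the prorenin receptor, a membrane protein that binds renin and prorenin and is also a subunit of the vacuolar proton pump. Its brightest probe set, 1437688_x_at, read 9.995 and 10.24 in WT PBS and 10.62, 9.91 and 9.98 in WT AngII. In KO it read 10.12, 9.9998 and 9.68 under PBS and 9.65 and 9.83 under AngII. WT AngII 2 was the highest array, and the 3 arrays of low spike-in signal were the lowest 3. The suffix x marks probe sets with probes that can also match other transcripts.

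The same order was seen with 1439456_x_at, which spanned 8.82 to 8.95 on the low spike-in arrays and 9.01 to 9.48 on the other 7. With 1423662_at the low arrays read 8.72 to 8.93 and the others 8.74 to 9.83, so that these overlapped. WT AngII 2 was the highest array in all 3 probe sets. The first and second followed each other closely (r = 0.93 with and without WT AngII 2).

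AngII in WT gave 0.05 ± 0.21, −0.07 ± 0.19 and 0.08 ± 0.25 for the 3 Atp6ap2 probe sets in this order. Without WT AngII 2 these were −0.17, −0.21 and −0.25, so this array sets their sign in 2 of the 3. AngII in KO gave −0.19 ± 0.21, −0.17 ± 0.19 and −0.25 ± 0.25.

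The genotype difference of Atp6ap2 depended on the arrays used and on the spike-in level. Under AngII it was −0.43 ± 0.21 for 1437688_x_at (limma adjusted p = 0.734), −0.28 ± 0.19 for 1439456_x_at and −0.43 ± 0.25 for 1423662_at. In 1437688_x_at and 1439456_x_at both KO AngII arrays lay below all WT AngII arrays. Without WT AngII 2 the values were −0.21, −0.14 and −0.10. With the spike-in level as a block they were −0.05, 0.12 and −0.30, and with both steps 0.18, 0.26 and 0.02. The genotype and the spike-in level cannot be told apart in the AngII arrays. Over the arrays 1437688_x_at ran with the macrophage marker mean (r = 0.86, and 0.61 without WT AngII 2), the smooth muscle mean (0.75 and 0.25) and the endothelial mean (0.64 and 0.66). It ran against the cardiomyocyte mean (−0.77 and −0.27). Lists mostly at background gave values of similar size, at −0.78 and −0.81 for aldosterone synthesis and −0.77 and −0.60 for kidney markers. These r values therefore do not point to a cell type, and the part of any cell type was not tested.

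**Figure D4:**
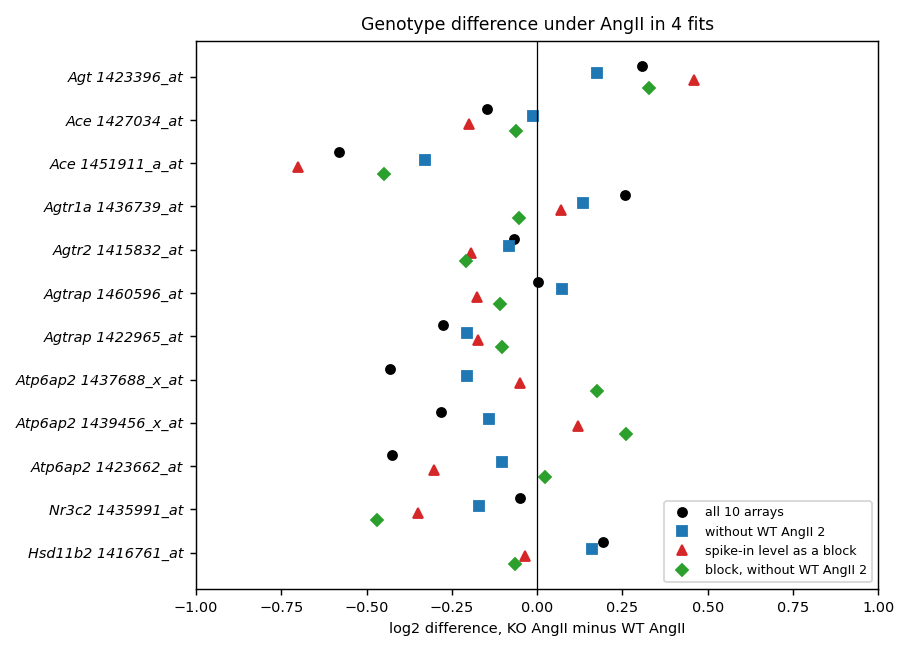
KO AngII minus WT AngII for each member probe set in 4 fits: all arrays, without WT AngII 2, with the spike-in level as a block, and with both. The 3 Atp6ap2 probe sets lie left of 0 with all arrays and right of 0 in the fit with both steps. Ace 1451911_a_at stays left of 0 in all 4, as do Ace 1427034_at, Agtrap 1422965_at and the background-level Agtr2. SE are not drawn.

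Nr3c2 encodes the mineralocorticoid receptor, the nuclear receptor for aldosterone. Its probe set 1435991_at read 7.92 and 8.41 in WT PBS, 7.63, 8.08 and 7.92 in WT AngII, 7.74, 8.27 and 8.30 in KO PBS, and 7.66 and 7.997 in KO AngII. Replicates within a group spread widely here, and all groups overlapped. AngII against PBS was −0.29 ± 0.23 in WT (95% interval −0.78 to 0.21) and −0.27 ± 0.23 in KO (−0.77 to 0.22). The averaged value was −0.28 ± 0.16 (−0.63 to 0.07, limma adjusted p = 0.571), which is a level of 0.823 of that under PBS. Without WT PBS 5 the WT value was −0.04, and without WT PBS 3 it was −0.54. Genotype differed by −0.06 ± 0.16 on average.

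Hsd11b2, the enzyme that shields the mineralocorticoid receptor from corticosterone in kidney and colon, was at background. Its probe set 1416761_at read 5.97 to 6.25 on the 7 arrays of high spike-in signal and 6.33 to 6.35 on the 3 of low signal. Both KO AngII arrays lay above all WT AngII arrays, and the difference of 0.19 ± 0.14 became −0.03 with the spike-in level as a block. The AngII difference was 0.09 ± 0.14 in WT and 0.13 ± 0.14 in KO.

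Groups that did not overlap were counted over all 12 member probe sets. AngII arrays of WT were wholly higher in 2 and wholly lower in 1, beside 8.4% and 11.3% of all probe sets. In KO the counts were 2 higher and 2 lower, beside 13.7% and 10.8%. KO PBS was wholly above WT PBS in 2 and below in 0, beside 13.2% and 10.8%. KO AngII was wholly above WT AngII in 3 and below in 2, beside 16% and 11.2%. Each count was within 2 probe sets of the share over the whole array.

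A wider list of 40 other genes of the system had 35 measured, of which 16 were above background on all arrays. None was called in any of the 7 comparisons by limma, and at an unadjusted p under 0.05 the number passing ranged from 0 to 5 of 35. It was 3 for AngII in WT, beside 5.23% of all probe sets, and 1 for AngII in KO, beside 4.57%. The interaction had 0 (1.64%), and the genotype difference had 1 in the PBS arrays (6.29%) and 5 in the AngII arrays (6.51%). The averaged AngII effect had 2 (9.62%) and the averaged genotype difference 5 (12.4%). The list median was 0.06 for AngII in WT and 0.04 in KO, and that of all genes was −0.0045 and −0.0089. Ren1 and Ren2 are not analysed here.

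Among angiotensin-forming proteases, the cathepsins Ctsb (11.99 to 13.06) and Ctsd (12.31 to 12.91) and the kallikrein Klk1 (7.26 to 8.05) were above background on all arrays. The mast cell proteases Mcpt4 (5.32 to 6.09) and Cpa3 (5.84 to 6.75) were below background on all arrays, and the chymase Cma1 (6.18 to 7.06) was above it on 2. Averaged over genotypes, AngII against PBS was 0.29 ± 0.12 for Mcpt4 (limma adjusted p = 0.497), at background level, and 0.14 with the spike-in level as a block. Cma1 was lower in KO by an averaged −0.41 ± 0.16 (limma adjusted p = 0.364), also near background.

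Of the angiotensin-cleaving peptidases, Enpep had the largest averaged genotype difference among the 10 measured. It encodes aminopeptidase A, which turns AngII into angiotensin III. Enpep read 8.89 and 8.73 in WT PBS, 8.98, 8.46 and 8.94 in WT AngII, 7.99, 8.36 and 8.54 in KO PBS, and 7.98 and 8.43 in KO AngII. KO arrays lay below WT arrays without overlap within each treatment. The averaged difference was −0.55 ± 0.15 (limma adjusted p = 0.288), −0.50 without WT AngII 2 and −0.79 with the spike-in level as a block. Prcp, a carboxypeptidase that cleaves AngII, had an averaged AngII difference of 0.24 ± 0.11, and Dpp4, a peptidase at background here, of 0.25 ± 0.12.

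Receptor partners included Arap1 and Arrb2, which act in trafficking and desensitisation of the type 1 receptor. Arap1 was lower in KO by an averaged −0.36 ± 0.13 (limma adjusted p = 0.355) and Arrb2 by −0.54 ± 0.22 (limma adjusted p = 0.380). Arrb2 read 8.44 on WT AngII 2 and 6.65 to 7.56 on the other 9 arrays. Its averaged genotype difference was −0.35 without that array and −0.24 with the spike-in level as a block. The angiotensin-(1-7) receptor Mas1 was below background, at 4.16 to 4.37.

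Genes of aldosterone synthesis were at background. Cyp11b2, the aldosterone synthase, read 5.28 to 5.95 and Cyp11b1, which makes corticosterone, 5.08 to 5.44. Star and Cyp11a1, which start steroid synthesis, read 6.29 to 6.78 and 5.26 to 5.68. Of the 6 measured genes only the 21-hydroxylase Cyp21a1 was above background, at 7.50 to 8.01. Its lowest array was just under the 99th percentile level.

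Corticosteroid handling in these hearts was read mainly from Nr3c1, the glucocorticoid receptor (9.52 to 10.11), and Hsd11b1, which regenerates corticosterone. Hsd11b1 read 9.42 and 9.56 in WT PBS, 8.47, 9.11 and 9.14 in WT AngII, 9.36, 9.61 and 9.54 in KO PBS, and 9.26 and 9.55 in KO AngII. All WT AngII arrays were below all other arrays. The WT difference was −0.58 ± 0.20 (limma adjusted p = 0.930) and −0.36 without WT AngII 2. Averaged over genotypes it was −0.34 ± 0.14 (limma adjusted p = 0.504), and the interaction of 0.48 ± 0.29 had a limma adjusted p near 1.

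A list of 16 genes that respond to corticosteroids was read without any measure of receptor activity, and 14 of the genes were measured. None was called by limma in any comparison, and 4 of 14 passed an unadjusted p under 0.05 for the averaged genotype difference, beside 12.4% of all probe sets. For the averaged AngII effect 2 of 14 passed, beside 9.62%. KO against WT had 4 of 14 under PBS, beside 6.29%, and 1 under AngII, beside 6.51%. AngII in WT had 0 (5.23%), AngII in KO 1 (4.57%) and the interaction 2 (1.64%). The list median was −0.27 for the averaged KO against WT, beside 0.0050 over all genes, and −0.02 for the averaged AngII effect. For KO against WT it was −0.41 under PBS and −0.08 under AngII, beside −0.0027 and 0.0042 over all genes. Relative to the all-array mean, the list averaged −0.42, −0.05 and −0.15 on the low spike-in arrays KO PBS 4, KO AngII 3 and KO AngII 4. It averaged 0.11 and −0.11 on KO PBS 2 and KO PBS 3, and −0.30 to 0.49 on WT arrays. The list median does not separate genotype from spike-in level.

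Per1, a clock gene induced by glucocorticoids, read 9.06 and 9.36 in WT PBS, 8.76, 8.11 and 8.88 in WT AngII, 8.76, 8.88 and 7.85 in KO PBS, and 7.83 and 7.70 in KO AngII. The low spike-in arrays were the lowest 3. Its averaged AngII difference was −0.68 ± 0.21 (limma adjusted p = 0.483), or −0.36 with the spike-in level as a block. Its averaged genotype difference was −0.77 ± 0.21 (limma adjusted p = 0.280), or −0.12 with the block.

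Rgs2, which curbs signalling from the G protein alpha-q that serves the type 1 receptor, had an averaged AngII difference of −0.35 ± 0.13 (limma adjusted p = 0.487), and −0.40 with the spike-in level as a block. Its averaged genotype difference was 0.35 ± 0.13. Cdkn1a, a cell cycle inhibitor, was lower in KO by an averaged −0.52 ± 0.22 but at 0.04 with the block. Atp1b1, the beta subunit of the sodium pump and a classical aldosterone target, differed by −0.31 ± 0.12 between genotypes and by 0.12 for the averaged AngII effect, which was 0.03 without WT AngII 2. Klf9, a steroid-induced transcription factor, differed by −0.13 for AngII, with values from −0.24 to −0.02 on leaving out single arrays and −0.23 with the block.

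The genes whose pattern over the 10 arrays was most like a member's were sought among 8531 genes above background, by Pearson's r, as a description only. For Ace these were Hgs (r = 0.97, and 0.95 without WT AngII 2), Lgals3bp (0.95 and 0.88) and Ltbp4 (0.94 and 0.87). For Agtr1a they were Prkag1 (0.97 and 0.95), Alkbh7 (0.95 and 0.90) and Trim63 (0.94 and 0.90), and for Nr3c2 Fahd2a (0.97 and 0.97), Fam126a (0.96 and 0.98) and Pick1 (0.92 and 0.98). Atp6ap2 was closest to Ap3d1 (0.97 and 0.94), Pter (0.97 and 0.93) and Nmt2 (0.96 and 0.91). Agtrap had looser neighbours, with Bex3 (0.91 and 0.94) ahead of Cenpq (0.75 and 0.76) and Tspan18 (0.74 and 0.75). The arrays share groups and spike-in levels, so no more is read from these likenesses.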

How the data were processed

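Values were deposited by the authors as log2 expression of 45101 probe sets on 10 one-colour Affymetrix arrays, 1 per sample, and the submitters' processing notes name RMA as the tool. RMA subtracts background, gives all arrays 1 distribution and combines the probes of a set, and it compresses differences of dim probe sets. The RMA version was not given in the sources used here. Per the labels' protocols, biotinylated cRNA came from 6 µg of total RNA. Precision is limited by how many arrays there are.

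Left out were 64 control probe sets. Platform annotation gave 1 symbol for 34945 of 45037 probe sets, several for 932 and none for 9160, and symbols were updated by Entrez identifier with RefSeq names (GRCm38.p6). A gene was represented by its brightest probe set.

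Differences came from limma 3.58.1 in R 4.3.3 (4 group means, eBayes with trend, 6 residual degrees of freedom), two-sided, with Benjamini-Hochberg adjustment over 45037 probe sets in each of 7 comparisons. The fit was tested on simulated arrays. Members, lists and alternatives were chosen with earlier results of these data known. Named genes were all members and, from each other list, up to 4 with the smallest p in the AngII and in the genotype average, then the 3 nearest patterns per detected member; other genes are named as examples of a list, chosen after their values were seen. Alternatives were other scalings, a level filter, other moderation, array weights, a replicate block by title number, the spike-in split (signal under 10 log2) as a block, the compared groups alone, and leaving out each array.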

Additional observations from a re-analysis of the deposited data

How the results depend on the processing

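No member was called in any comparison under any alternative except array weights, which called 1 of 12 member probe sets, Ace 1451911_a_at, for AngII against PBS in WT and 1 for KO against WT under AngII; the cause was not tested. Over all probe sets the weighted fit called 262 for AngII in WT and 2911 for KO against WT under AngII, where the unweighted fit called 0 and 5. It called 90 against 0 for the averaged AngII effect, 1562 against 20 for the averaged genotype difference, and 18 against 6 for KO against WT under PBS. Leaving out single arrays gave 0 to 3 calls among all probe sets for AngII in WT and in KO, 0 to 2 for the interaction and the averaged AngII effect, 4 to 22 and 4 to 8 for genotype under PBS and under AngII, and 10 to 30 for the averaged genotype difference, where the 22 and the 30 were without WT AngII 2. With the spike-in level as a block these genotype counts were 6, 2 and 5. Title numbers gave no evident pairing: deviations of 10 same-numbered pairs correlated with r from −0.34 to 0.12, only 1 of them over 0.1. The 27 other pairs ran from −0.37 to 0.37, with 9 over 0.1. In a group of 2 arrays the deviations mirror each other. The pairs are thus not independent and cannot settle whether arrays of 1 title number belong together. With the number as a replicate block, members were called 0 times, and the WT effect of Ace 1451911_a_at was 0.61; over all probe sets the block called 1 for AngII in WT, 3 for genotype under PBS, 3 under AngII and 5 averaged. Of 1119 alternative values for the 8 brightest member probe sets in 7 comparisons, 1074 moved by less than the residual SD, 45 by more, and 84 changed sign, all of values that were not called. The members above background numbered 4 to 6 over the alternatives, against 5. With 2 or 3 arrays per group, the SE of a member's difference was 0.06 to 0.36 over the 7 comparisons, which sets what could be told from 0, and Agtr2, Hsd11b2 and in part Agt were limited by signal near background.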
